A study of Mus musculus with 6 samples.

Results

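Collagens are extracellular proteins built from triple-helical chains, and 44 genes whose symbol names a collagen chain were examined here in cardiac RNA sequencing libraries of myocardial infarction (MI) and sham operation. They were taken by symbol alone (Col, a type number, the letter a and a chain number) from a table of 17714 genes. The MI group held 3 libraries of wild-type mice at day 3 and the sham group held 3 libraries of wild-type mice at day 3. All 6 were labelled as lymphatic endothelial cells from the heart, and the protocol text names both heart tissue and primary heart endothelial cells, kept in medium with serum, without saying which gave these libraries. Nothing in the labels says that the libraries of a group came from separate animals, so the p-values measure the spread between libraries, which may be technical.

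Each collagen chain folds with others into a trimer in the endoplasmic reticulum, and the trimers assemble outside the cell. Fibrillar collagens form the load-bearing fibres of the interstitium and of scars, and in the heart fibroblasts make most of them. Type IV collagen forms the sheet-like network of basement membranes beneath endothelium and around muscle cells. Type VI collagen makes beaded filaments that link cells to the surrounding matrix, and the multiplexins, types XV and XVIII, sit where basement membranes meet fibres.

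The libraries were mixtures of cell types, which bears on every value that follows. Total estimated counts ran from 21154342 to 21689333 in MI and from 3206732 to 3591473 in sham, so depth followed the group. Prox1, the defining regulator of lymphatic endothelium, averaged 0.283 ± 0.117 TPM in MI and 1.76 ± 0.127 TPM in sham (SD, n = 3 each; TPM is a level per transcript length, scaled to the same total in each library). Over 10 fibroblast markers the summed level was 525 to 542 TPM in MI and 2052 to 2100 TPM in sham. Over 10 pan-endothelial markers it was 1026 to 1055 TPM in MI and 5637 to 5689 TPM in sham, and over 8 mural cell markers 319 to 360 TPM in MI and 1447 to 1478 TPM in sham. Over 10 macrophage markers it was 24230 to 25440 TPM in MI and 5889 to 6236 TPM in sham. Of 7 lymphatic markers, 6 were lower and 1, Pdpn, was higher, at 183 to 201 TPM in MI and 4.18 to 5.99 TPM in sham. The other 6 summed to 33.3 to 35.7 TPM in MI and 327 to 365 TPM in sham. All 8 cardiomyocyte markers were lower (172 to 206 TPM in MI, 4475 to 4528 TPM in sham). The 3 of 6 mesothelial markers that could be tested were lower too. Testing took at least 0.808 CPM (counts scaled to library size) in 3 libraries. Msln and Upk3b reached this level in every sham library but not in every MI library, so their sham level made them testable. Apart from them, Wt1 passed in both groups and averaged 4.11 ± 0.742 TPM in MI and 13.2 ± 2.51 TPM in sham. All 6 mesothelial markers together summed to 6.10 to 6.97 TPM in MI and 18.1 to 25.1 TPM in sham. Each marker had counts in both groups. The part of these mixtures in the collagen differences was not tested, and in bulk RNA fewer cells of a type and less RNA per cell cannot be told apart.

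In MI the collagen transcripts moved toward fibrillar chains and away from type IV chains. Fibrillar chains made up 43.04 ± 0.391% of all collagen TPM in MI and 11.6 ± 0.242% in sham, and type IV chains made up 39.9 ± 0.393% in MI and 73.7 ± 0.730% in sham (SD, n = 3 each). Multiplexins took 8.45 ± 0.175% in MI and 6.91 ± 0.331% in sham, and type VI chains took 4.89 ± 0.213% in MI and 5.08 ± 0.241% in sham. The MI and sham libraries did not overlap in the fibrillar, type IV or multiplexin share. For type VI they overlapped, at 4.64% to 5.04% in MI and 4.87% to 5.35% in sham. All 44 chains together summed to 1412 ± 84.5 TPM in MI and 1823 ± 84.2 TPM in sham.

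**Figure D1:**
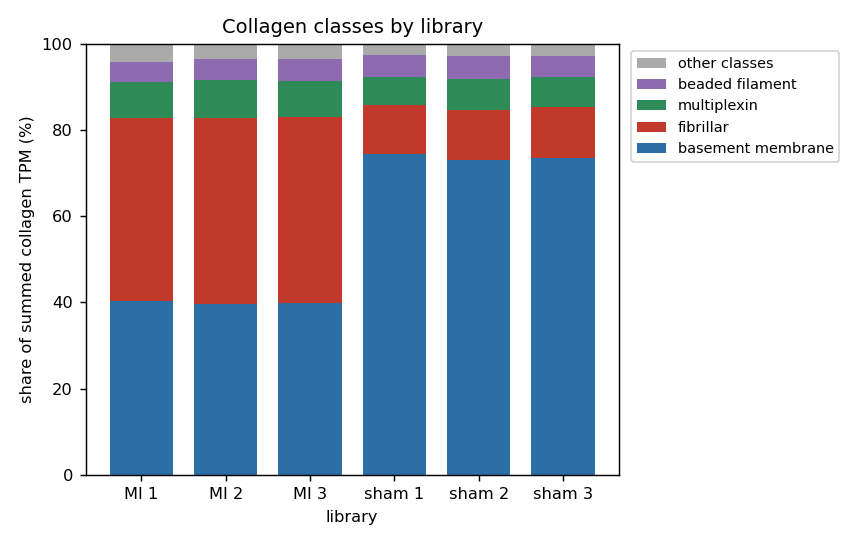
Share of summed collagen TPM (y axis, percent) held by each collagen class in each of the 3 MI and 3 sham libraries (x axis); each bar is 1 library and adds to the whole of its collagen TPM. The fibrillar segment is 42.6% to 43.4% in MI libraries and 11.4% to 11.8% in sham libraries.

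The number of chains that changed did not stand out from the transcriptome, while the direction followed the class. Of the 44 chains, 34 passed the filter on low counts; 14 of these were higher and 13 lower in MI at an adjusted p below 0.05 (edgeR quasi-likelihood test, adjusted over 13370 genes). That is 41.2% and 38.2% of the tested chains, beside 36.4% of all tested genes called higher and 36.9% called lower. The median log2 fold change was 0.42 over the tested chains and -0.01 over all tested genes. Passing the filter took at least 0.808 CPM (counts scaled to library size) in 3 libraries. Col11a1 reached this level in MI libraries alone, and Col13a1 and Col25a1 in sham libraries alone. Col4a3, Col4a6 and Col6a6 reached it in every sham library but not in every MI library. The reverse held for Col8a2, and for Col7a1 and Col26a1, which were not called. Without Col11a1, Col13a1 and Col25a1 the counts were 13 higher and 11 lower of 31, which still include the other chains named. With libraries scaled to total counts instead of by trimmed means (TMM), the median of all genes shifted to -0.36 and the split of all calls to 3549 higher and 6628 lower, against 4861 and 4940; 12 collagen chains were then higher and 15 lower.

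**Figure D2:**
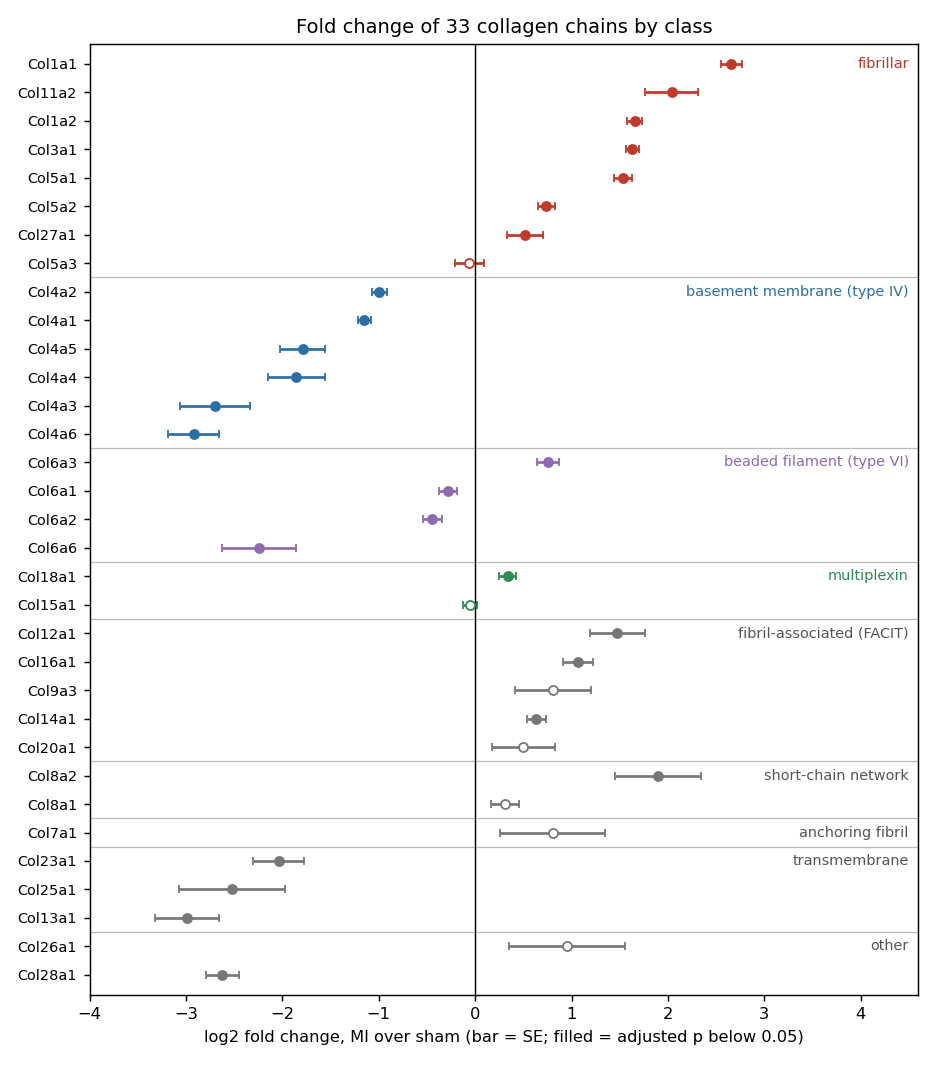
Log2 fold change of MI over sham (x axis) for 33 tested collagen chains (y axis) grouped by class, with SE bars; filled points passed an adjusted p of 0.05. Col11a1, with no sham counts, is not drawn; type IV chains run from -2.92 to -0.995 and fibrillar chains from -0.06 to 2.66.

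Fibrillar chains were higher in MI with few exceptions. Of 11 fibrillar genes, 9 were tested, and 8 rose and none fell (median log2 fold change 1.63, the same with Col11a1 set at its lower bound). Without Col11a1, which passed the filter through MI alone, 7 of 8 rose. Col1a1, which encodes the alpha-1 chain of type I collagen, the main fibre of scar and bone, had 117, 119.7 and 121 TPM in MI, against 24.0, 21.4 and 18.3 TPM in sham. Every MI library lay far above every sham library. In counts scaled by TMM the rise was 6.30-fold (log2 fold change 2.66 ± 0.11, SE; edgeR adjusted p = 7.48e-10), the largest among the 13 chains that averaged at least 10 TPM in a group. Its partner in the type I trimer, Col1a2, had 159, 143 and 151 TPM in MI, against 57.6, 50.9 and 52.1 TPM in sham. Col1a2 rose 3.15-fold (1.65 ± 0.08; edgeR adjusted p = 3.12e-09), with no overlap between groups.

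Col3a1, the type III chain of distensible tissues such as vessel walls, was the most abundant fibrillar transcript per length in both groups. It had 291, 252 and 272 TPM in MI, against 95.8, 99.9 and 98.04 TPM in sham, and all MI libraries were above all sham libraries. The rise was 3.10-fold (log2 fold change 1.63 ± 0.07, SE; edgeR adjusted p = 1.25e-09). Together Col1a1, Col1a2 and Col3a1 held 89.2 ± 0.253% of fibrillar TPM in MI and 81.6 ± 0.662% in sham (SD, n = 3 each).

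Col3a1 lies on chromosome 1 of GRCm38.p6, from 45311538 to 45349706, where Col5a2 follows it from 45374331 to 45503282. To set a chain that rose beside one that fell, the 250 bases before the annotated start are shown for Col3a1 and for the type VI gene Col6a2, the only called chains of at least 10 TPM with a window outside every annotated exon and outside the gene's own span. Both are RefSeq sequences of GRCm38.p6, read 5′ to 3′ on the gene's strand (Col3a1 plus, Col6a2 minus), at chr1:45311288-45311537 and chr10:76623631-76623880. Capitals mark a match to a promoter motif, searched on both strands. The TATA box was searched as TATAAA. The GC box was searched as GGGCGG. The CCAAT box was searched as the letters of its name.

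Col3a1: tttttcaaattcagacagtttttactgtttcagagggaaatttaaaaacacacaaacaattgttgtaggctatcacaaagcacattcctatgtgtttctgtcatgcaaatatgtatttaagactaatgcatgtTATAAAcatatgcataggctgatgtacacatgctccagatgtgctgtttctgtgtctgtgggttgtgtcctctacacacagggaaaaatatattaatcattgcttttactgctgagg
Col6a2: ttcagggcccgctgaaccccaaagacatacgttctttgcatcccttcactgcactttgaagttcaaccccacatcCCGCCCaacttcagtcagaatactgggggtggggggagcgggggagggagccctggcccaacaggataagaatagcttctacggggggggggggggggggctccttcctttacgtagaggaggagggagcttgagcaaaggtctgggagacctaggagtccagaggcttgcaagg

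The Col3a1 window is 35.2% G and C and holds 1 TATA box, which starts at position -117 from the annotated start, and neither of the other motifs. The Col6a2 window is 59.2% G and C and holds 1 GC box, on the opposite strand, at position -175. Among 32851 RefSeq windows of the same length, 12.4% hold a TATA box, 32.7% a GC box and 33.8% a CCAAT box on either strand, and with 1 match each there was no overlap of motifs in the 2 windows shown. These matches describe the letters of each window only.

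The type V chains, which are incorporated into type I fibrils and regulate their diameter, divided. Col5a1 had 22.6, 20.8 and 21.4 TPM in MI, against 8.78, 7.88 and 8.37 TPM in sham, a rise of 2.89-fold (log2 fold change 1.53 ± 0.09, SE; edgeR adjusted p = 2.58e-08). Col5a2 had 35.6, 29.3 and 31.04 TPM in MI, against 20.6, 21.3 and 22.3 TPM in sham, a rise of 1.67-fold (0.74 ± 0.09; edgeR adjusted p = 9.59e-06). Both chains separated the groups completely. Col5a3, a less widespread type V chain, had 5.74, 5.19 and 5.57 TPM in MI, against 7.79, 5.06 and 6.34 TPM in sham. Its libraries overlapped and the test made no call (log2 fold change -0.06 ± 0.15, edgeR adjusted p = 0.731); without sham 1 the estimate was 0.12. It was called lower with libraries scaled to total counts (-0.41, adjusted p = 0.0257), within a range of 0.0257 to 0.983 over 14 alternatives.

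Of the low fibrillar chains, Col11a2, best known from cartilage, averaged 3.60 ± 0.386 TPM in MI and 0.943 ± 0.494 TPM in sham and rose 4.11-fold (edgeR adjusted p = 3.28e-05). Col11a1, its partner chain, had 127 counts over the MI libraries and 0 over the sham libraries. Set against 3 counts over the sham group (0.259 CPM), it was at least 8.59-fold higher in MI, a bound that covers counting error only. Col27a1 averaged 2.01 ± 0.219 TPM in MI and 1.83 ± 0.562 TPM in sham with overlapping libraries. It was called higher (log2 fold change 0.52 ± 0.19, edgeR adjusted p = 0.0271), but not without MI 3 (adjusted p = 0.0662), sham 2 (0.101) or sham 3 (0.0674). Nor was it called by DESeq2 (0.0667), total-count scaling (0.439), limma on TPM (0.608) or with MI thinned to the sham depth (0.335). Over all 14 alternatives its adjusted p ran from 0.0188 to 0.608. Col24a1 and Col2a1, the main cartilage collagen, were too low to test, with 37 and 14 counts over the MI libraries and 6 and 0 over the sham libraries.

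**Figure D3:**
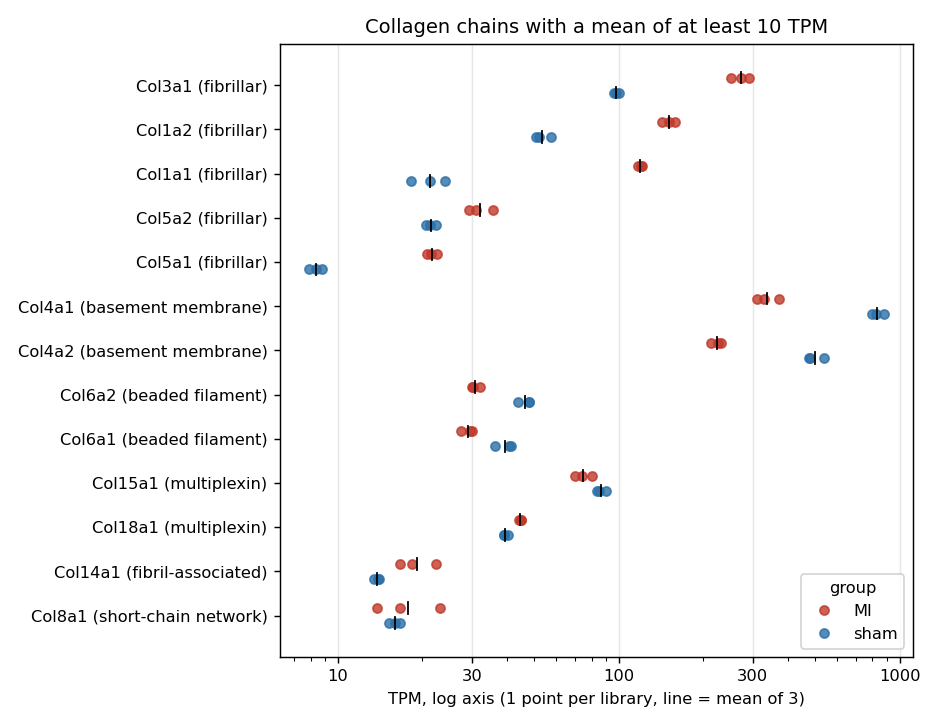
TPM (x axis, log scale) of the 13 collagen chains that averaged at least 10 TPM in a group (y axis); points are single libraries, MI above sham in each row, and black lines are means of 3. The 5 fibrillar chains lie higher in MI, Col4a1 and Col4a2 lie higher in sham, and Col8a1 overlaps at 13.7 to 23.1 TPM in MI and 15.1 to 16.6 TPM in sham.

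All 6 type IV chains fell in MI (median log2 fold change -1.82). Col4a3 and Col4a6 passed the filter through the sham libraries, since not every MI library reached its level. The median includes both, at log2 fold changes of -2.70 and -2.92. Apart from them, Col4a1, Col4a2, Col4a4 and Col4a5 passed in both groups, and all were called lower. Their log2 fold changes were -1.15, -0.995, -1.85 and -1.79. Col4a1, which with Col4a2 forms the ubiquitous basement membrane trimer, had 373, 309 and 329 TPM in MI, against 879, 823 and 799 TPM in sham. Col4a2 had 227, 214 and 231 TPM in MI, against 538, 478 and 482 TPM in sham. No MI library reached any sham library for either chain, yet Col4a1 was the most abundant collagen transcript per length in both groups. Col4a1 fell 2.22-fold (log2 fold change -1.15 ± 0.07, SE; edgeR adjusted p = 2.96e-08) and Col4a2 fell 1.99-fold (-0.995 ± 0.08; edgeR adjusted p = 2.26e-07). They held 39.7 ± 0.337% of all collagen TPM in MI and 73.1 ± 0.752% in sham.

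Pan-endothelial markers also fell in these libraries, all 10 of 10 tested, with a median log2 fold change of -2.15. Relative to Pecam1, an endothelial junction gene, Col4a1 stood at 1.65 ± 0.0937 TPM per Pecam1 TPM in MI and 0.887 ± 0.0511 in sham, so this ratio was higher in MI (SD, n = 3 each). For Col4a2 it was 1.097 ± 0.0360 in MI and 0.531 ± 0.0407 in sham. The ratios to markers given here were chosen after values were seen and were not tested. Which cells carried the type IV transcripts is not resolved by these data.

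The other type IV chains build the specialised networks of kidney, lung and smooth muscle, and here they were scarce. Col4a3 to Col4a6 summed to 3.62, 1.66 and 2.35 TPM in MI, against 11.9, 11.9 and 10.9 TPM in sham, with no overlap. Col4a5, the most abundant of them, had 2.55, 1.08 and 1.66 TPM in MI, against 6.61, 7.36 and 6.0 TPM in sham, and fell 3.46-fold (log2 fold change -1.79 ± 0.23, SE; edgeR adjusted p = 2.42e-05). Col4a6 fell 7.58-fold, Col4a3 6.50-fold and Col4a4 3.62-fold. Counts behind these are small, from 47 to 103 over the MI libraries and from 73 to 76 over the sham libraries for Col4a3, Col4a4 and Col4a6. The 4 scarce chains made up 0.445 ± 0.144% of type IV TPM in MI and 0.861 ± 0.0405% in sham, and the libraries did not overlap.

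Type IV genes lie head to head in pairs. On chromosome 8, Col4a1 (11198423 to 11312889) and Col4a2 (11312805 to 11449287) are read outward from a shared start region in which the annotated spans overlap by 85 bases. On chromosome 1 the spans of Col4a4 and Col4a3 overlap by 114 bases, and on chromosome X 1274 bases separate Col4a6 from Col4a5. Without a stated strand setting, reads from the 22 exon bases that Col4a1 and Col4a2 share on opposite strands (GENCODE M21, GRCm38) cannot be assigned, so both counts carry that uncertainty. The ratio of Col4a1 to Col4a2 TPM was 1.65, 1.45 and 1.42 in MI, against 1.64, 1.72 and 1.66 in sham. MI 1 lay within the range of the sham libraries, and the exact two-sided permutation test gave p = 0.2.

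Type VI chains went both ways. Col6a2 had 30.1, 30.3 and 32.0 TPM in MI, against 48.1, 47.9 and 43.6 TPM in sham, and fell 1.36-fold (log2 fold change -0.44 ± 0.10, SE; edgeR adjusted p = 0.00121). Col6a1, its partner in the trimer, had 29.6, 27.4 and 30.1 TPM in MI, against 41.4, 40.8 and 36.1 TPM in sham. Col6a1 was called lower (1.22-fold, -0.28 ± 0.09, edgeR adjusted p = 0.0173). Its call was lost without sham 1 (adjusted p = 0.0857) or sham 2 (0.0753). It was also lost with DESeq2 (0.062) and with the low-count filter dropped (0.0634). Over all 14 alternatives its adjusted p ran from 6.77e-05 to 0.0857. Both chains had MI values below all sham values.

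Col6a3, the longest chain of the classical type VI trimer, moved the other way. It had 9.58, 8.26 and 8.88 TPM in MI, against 6.16, 6.31 and 5.07 TPM in sham, and rose 1.69-fold (log2 fold change 0.76 ± 0.11, SE; edgeR adjusted p = 7.40e-05). The groups did not overlap. Col6a6 averaged 0.163 ± 0.0839 TPM in MI and 0.867 ± 0.10 TPM in sham and fell 4.74-fold. Col6a4 and Col6a5 were not tested, with 3 and 5 counts over the MI libraries and none over the sham libraries.

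The multiplexins changed little beside the fibrillar and type IV chains. Col15a1, found in the basement membrane zone of vessels and muscle, had 80.0, 69.8 and 73.8 TPM in MI, against 85.0, 89.96 and 83.8 TPM in sham. Its TPM values were lower in every MI library, but the TMM-scaled counts gave a log2 fold change of -0.05 ± 0.07 and no call (edgeR adjusted p = 0.543). Col15a1 was called lower under scaling to total counts (-0.40, adjusted p = 3.72e-04) and by limma on TPM (-0.21, adjusted p = 0.0384), within a range of 3.72e-04 to 0.967 over 14 alternatives.

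Col18a1, whose C-terminal fragment is the angiogenesis inhibitor endostatin, had 44.2, 44.9 and 44.9 TPM in MI, against 40.5, 39.03 and 39.02 TPM in sham. All MI libraries were above all sham libraries, and the call was a 1.26-fold rise (log2 fold change 0.34 ± 0.09, SE; edgeR adjusted p = 0.00413). It was not called by limma on TPM (0.17, adjusted p = 0.0718), and with libraries scaled to total counts the sign turned (-0.01, adjusted p = 0.891); over 14 alternatives the adjusted p ran from 2.15e-06 to 0.891. Per Pecam1 TPM, Col15a1 was at 0.365 ± 0.0103 in MI and 0.0917 ± 0.00304 in sham, and Col18a1 at 0.219 ± 0.0107 in MI and 0.0420 ± 0.00126 in sham (SD, n = 3 each).

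Ratios between chains were compared within trimers and between classes. The ratio of Col1a1 to Col1a2 TPM was 0.739, 0.839 and 0.805 in MI, against 0.417, 0.420 and 0.351 in sham, so type I chains were nearer to parity in MI. The log2 ratio differed by 1.008, several times the SD of either group (0.09 in MI, 0.15 in sham). Col5a1 to Col5a2 stood at 0.677 ± 0.0396 in MI and 0.391 ± 0.0308 in sham, and Col3a1 to Col1a1 at 2.28 ± 0.193 in MI and 4.68 ± 0.688 in sham.

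Between classes the contrast was wider. Col4a1 to Col3a1 was 1.28, 1.23 and 1.21 in MI, against 9.18, 8.24 and 8.15 in sham, a log2 difference of -2.78. Col18a1 to Col15a1 was 0.601 ± 0.0460 in MI and 0.459 ± 0.0220 in sham, and Col6a1 to Col6a2 was 0.943 ± 0.0396 in MI and 0.847 ± 0.0169 in sham. In 6 of the 7 ratios examined the groups did not overlap, each with an exact two-sided permutation p = 0.1, the smallest that 3 against 3 libraries allow; Benjamini-Hochberg adjustment over the 7 ratios gave 0.117 for those 6 and 0.2 for Col4a1 to Col4a2.

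**Figure D4:**
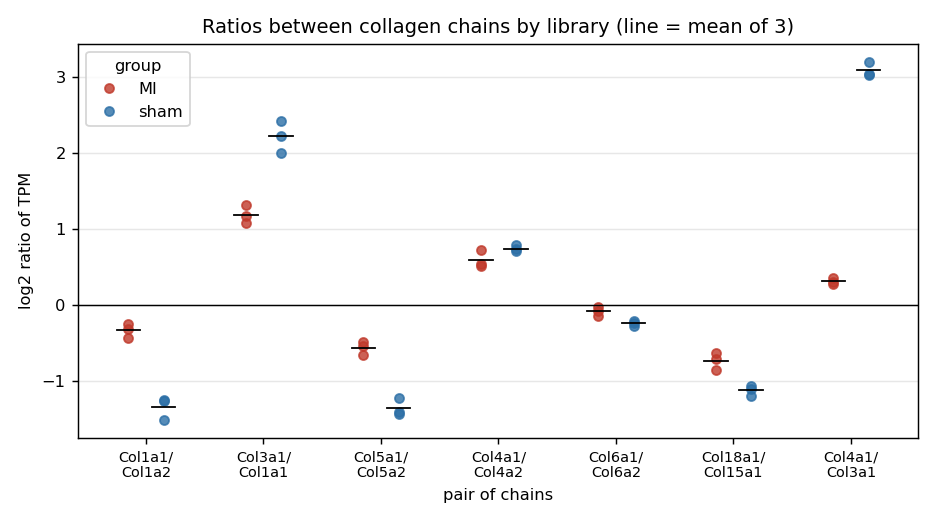
Log2 ratio of TPM between 2 collagen chains (y axis) for 7 pairs (x axis); points are single libraries, MI left of sham, and black lines are means of 3. Groups separate in 6 pairs, most widely for Col4a1 over Col3a1, and overlap for Col4a1 over Col4a2.

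Fibril-associated chains, which sit on the surface of fibres, were tested for 5 of 9 genes, and 3 rose and none fell. That is 60.0% higher and 0.0% lower among few genes, beside 36.4% and 36.9% of all tested genes. Col14a1 had 22.4, 16.6 and 18.4 TPM in MI, against 14.04, 13.9 and 13.4 TPM in sham, with no overlap, and rose 1.55-fold (log2 fold change 0.64 ± 0.10, SE; edgeR adjusted p = 1.38e-04). Col16a1 had 6.88, 7.12 and 6.33 TPM in MI, against 2.99, 4.30 and 3.91 TPM in sham, and rose 2.10-fold. Col12a1, which binds type I fibres, averaged 1.74 ± 0.206 TPM in MI and 0.737 ± 0.516 TPM in sham and rose 2.78-fold (edgeR adjusted p = 5.59e-04). Col9a3 and Col20a1 were not called.

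Short-chain collagens form lattices in vessel walls and beneath corneal endothelium. Col8a1 had 23.1, 13.7 and 16.6 TPM in MI, against 16.03, 16.6 and 15.1 TPM in sham, and MI 1 alone stood above all sham libraries. It was not called (log2 fold change 0.30 ± 0.15, edgeR adjusted p = 0.0764). It became called under 5 of 14 alternatives, among them the omission of MI 2 (0.42, adjusted p = 0.00707). The others were DESeq2, RLE scaling, dropping the filter and thinning MI to the sham depth. With total-count scaling it had the opposite sign (-0.04). Its adjusted p ran from 0.00707 to 0.798 over the 14 alternatives. Col8a2 averaged 1.40 ± 0.232 TPM in MI and 0.423 ± 0.323 TPM in sham and rose 3.73-fold (edgeR adjusted p = 0.00224). Its sham libraries held 7, 1 and 3 counts. The fold was 6.64 without sham 1, 2.74 without sham 2 and 3.54 without sham 3. With total-count scaling it was 2.93.

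Of the 4 membrane-spanning collagens 3 were tested and called lower, but Col13a1 and Col25a1 had passed the filter through sham alone, which leaves Col23a1. Col13a1, an adhesion component of neuromuscular junctions, averaged 0.267 ± 0.0289 TPM in MI and 2.46 ± 0.514 TPM in sham. Col23a1 averaged 0.427 ± 0.0252 TPM in MI and 1.99 ± 0.442 TPM in sham and fell 4.11-fold (edgeR adjusted p = 2.31e-05). Col25a1 rested on 15 counts over the MI libraries and 18 over the sham libraries, taken at very different depths.

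Col28a1, a chain found around peripheral nerve in mice, fell. It had 1.11, 0.97 and 1.07 TPM in MI, against 8.01, 5.80 and 7.30 TPM in sham, with no overlap, a change of 6.17-fold (log2 fold change -2.62 ± 0.17, SE; edgeR adjusted p = 4.33e-08). Of 6 Schwann cell markers 3 could be tested, with 2 higher and 0 lower. All 6 together summed to 37.9 to 44.1 TPM in MI and 24.9 to 27.8 TPM in sham. The part of Schwann cells in the Col28a1 fall was not tested. Col26a1 and the anchoring fibril chain Col7a1 were not called. The 10 untested chains, among them Col9a1, Col9a2, Col10a1, Col17a1, Col19a1 and Col22a1, had at most 18 counts in any library.

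Collagen-handling genes were taken in 4 lists. Of 22 genes of procollagen folding and modification, 7 rose, 10 fell and 5 were not called (median log2 fold change -0.13). These are 31.8% higher and 45.5% lower, near the 36.4% and 36.9% of all tested genes. The 7 that rose include P4ha3, which reached the filter level in MI libraries alone. It had 76, 68 and 82 counts in MI and 0 in each sham library. With total-count scaling 4 rose and 12 fell. P4hb, the disulphide isomerase subunit of prolyl hydroxylase, had 575, 556 and 575 TPM in MI, against 316, 304 and 299 TPM in sham, and rose 2.08-fold. Serpinh1, the collagen chaperone HSP47, had 199.7, 211 and 208 TPM in MI, against 621, 606 and 582 TPM in sham, and fell 2.61-fold (log2 fold change -1.38 ± 0.08, SE; edgeR adjusted p = 2.28e-08). No MI library reached any sham library for Serpinh1, and it fell in the libraries in which Col1a1 rose. Sparc, a collagen-binding matrix protein, fell 2.72-fold and the glycosyltransferase gene Colgalt2 6.75-fold.

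Among 12 tested genes of propeptide removal and cross-linking, 5 rose and 4 fell (median 0.23), or 41.7% and 33.3%, again near the shares of all genes. With total-count scaling 3 rose and 4 fell. Lox, which oxidises lysines for cross-links, had 23.1, 13.8 and 14.5 TPM in MI, against 4.07, 4.68 and 4.06 TPM in sham, and rose 4.22-fold (log2 fold change 2.08 ± 0.20, SE; edgeR adjusted p = 1.42e-06). Its relatives Loxl3 and Loxl2 rose 3.32-fold and 1.63-fold, while Pcolce2, an enhancer of propeptide cleavage, fell 3.40-fold. Of 11 tested receptors and uptake genes, 4 rose and 4 fell (median 0.04), or 36.4% each way, as over all genes. Lair1, an inhibitory collagen receptor of leukocytes, rose 4.73-fold, in libraries with higher macrophage markers. The mannose receptor gene Mrc1, which is itself on the macrophage marker list, rose 2.01-fold. Itga1, a collagen-binding integrin subunit, fell 4.61-fold and the collagen receptor kinase gene Ddr2 2.34-fold.

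Degradation genes were higher in MI for 7 of 10 tested and lower for 2 (median 2.78), or 70.0% and 20.0%, beside 36.4% and 36.9% of all genes. The 7 and the median include Mmp8, which reached the filter level in MI libraries alone. It had 736, 654 and 736 counts in MI and 1, 0 and 0 counts in sham. Mmp14, a membrane-bound collagenase, had 207, 212 and 216 TPM in MI, against 21.8, 20.9 and 21.5 TPM in sham, and rose 11.1-fold (log2 fold change 3.47 ± 0.09, SE; edgeR adjusted p = 4.68e-11). Mmp9, a gelatinase, rose 12.99-fold, and the lysosomal proteases Ctss and Ctsb rose 12.8-fold and 12.5-fold. These rises stood beside a median of 2.29 for the 10 macrophage markers, all of which rose; the part of macrophages was not tested.

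The fibrillar rise and the fibroblast markers went in opposite directions. All 10 fibroblast markers fell, with a median log2 fold change of -2.03, among them Pdgfra (2.89 ± 0.525 TPM in MI and 10.6 ± 0.635 TPM in sham). Col1a1 stood at 42.3 ± 8.12 TPM per Pdgfra TPM in MI and 1.99 ± 0.152 in sham, and Col3a1 at 95.2 ± 10.6 in MI and 9.23 ± 0.664 in sham (SD, n = 3 each). Of 5 genes listed for activated fibroblasts, 4 rose. All 5 together summed to 757 to 889 TPM in MI and 703 to 738 TPM in sham. That sum includes Acta2, which fell and averaged 175 TPM in MI and 569 TPM in sham. Postn, the matrix protein periostin, rose 2.25-fold, Cthrc1 9.38-fold, Fn1 (fibronectin) 7.56-fold and Tnc (tenascin C) 10.8-fold. Acta2, smooth muscle actin, fell 2.79-fold, and all 8 mural cell markers fell too.

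**Figure D5:**
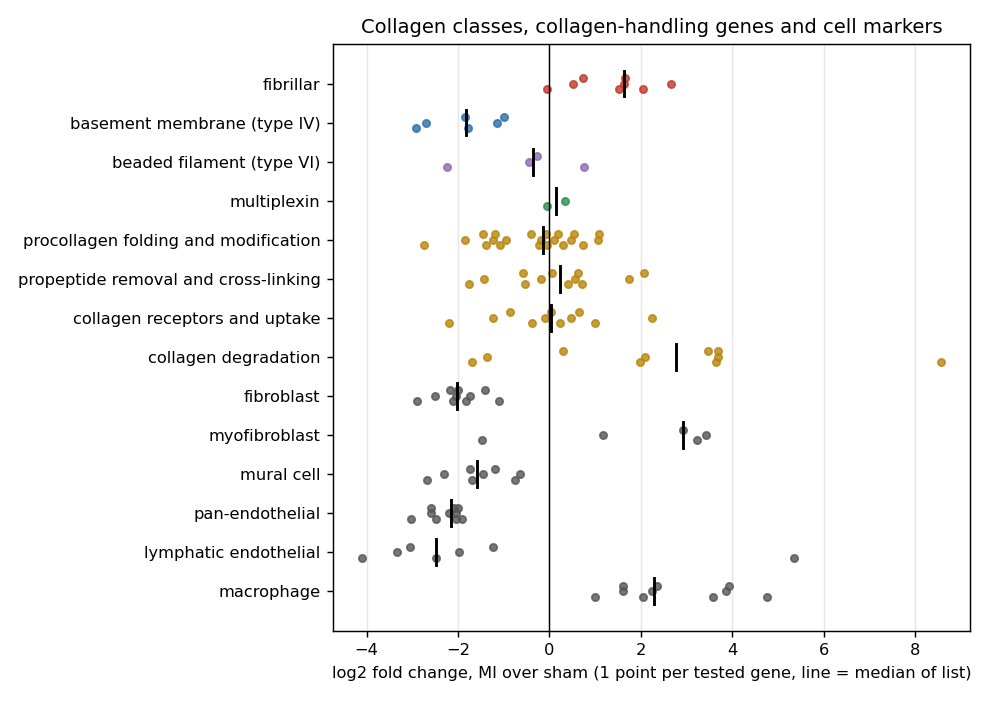
Log2 fold change of MI over sham (x axis) of each tested gene in 4 collagen classes, 4 lists of collagen-handling genes and 6 cell marker lists (y axis); points are genes, black lines are list medians, and Col11a1 and P4ha3, with 0 sham counts, are not drawn as points. Fibrillar chains centre at 1.63, beside -2.03 for fibroblast markers, 2.92 for activated fibroblast genes and -2.15 for pan-endothelial markers.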

How the data were processed

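RNA libraries of 3 MI and 3 sham samples were sequenced on a BGISEQ-500, per the series' design text. The authors deposited 1 table with estimated counts per gene, which are not scaled and have 2 decimals, and with TPM. The authors also deposited FPKM and a signal column, their estimated counts divided by an unstated factor, neither of which was used here. Reads were mapped to GRCm38, per the series' design text, and GRCm38.p6 stands in the submitters' processing notes, beside Agilent Feature Extraction 9.1 with no role given. The aligner, counting program, strand setting and filters are not given in the sources used here.

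Estimated counts were rounded. In R 4.3.3, edgeR 4.0.16 kept 13370 genes (filterByExpr), scaled them by TMM and tested MI against sham by quasi-likelihood; p-values were two-sided and Benjamini-Hochberg adjusted over those genes, with a threshold of 0.05. Fold changes are MI over sham, and SE is the log2 fold change over the square root of F. The common biological coefficient of variation was 0.103. Ratios were tested by exact permutation over libraries. The code was tested on simulated data. Gene positions and sequences are RefSeq GRCm38.p6; all 44 chains had a position and 35 a promoter window.

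The chains, classes and gene lists were chosen with earlier results of these data known. Chains averaging at least 10 TPM in a group are given by library; other chains are named by level in their class or place in a count, and up to 4 genes per collagen-handling list by smallest p. Markers other than the first 3 of a list, and ratios to markers, were named after values were seen. Alternatives were DESeq2 1.42.0, RLE and total-count scaling, dropping the filter, tightening it (1 CPM throughout a group plus 100 counts in total), blocking on replicate number, omitting each library, limma 3.58.1 on log2(TPM + 1), and MI libraries thinned to the sham depth.

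Libraries of a group differed beyond counting noise (chi-square per gene from 1.54 to 1.77 within sham and from 4.14 to 35.3 within MI), so none was merged. The sham libraries, the shallower ones, set the limit for low chains.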

Additional observations from a re-analysis of the deposited data

How the results depend on the processing

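Across the 14 alternatives, 11 to 16 collagen chains were higher and 10 to 15 lower in MI, and neither these counts, those of all genes nor the totals called in the 4 collagen-handling lists moved by over 1.5 times. Within those lists, total-count scaling left 4 folding genes higher in place of 7 and 3 cross-linking genes in place of 5. Leaving out each library in turn gave 11 to 15 higher and 12 to 13 lower chains. The 5 fibrillar chains at 10 TPM or more, all 6 type IV chains, Col6a2 and Col6a3 kept their direction and call under each alternative run. Signs turned for chains near 0: Col18a1 (-0.0136) and Col8a1 (-0.0435) with total-count scaling, Col15a1 (0.004) without a filter and Col5a3 (0.12) without sham 1, with a range of -0.20 to 0.12 over left-out libraries; beyond the scaling's own shift of the median, the cause was not tested. In TMM-scaled CPM, which is not per length, the fibrillar share was 41.4% in MI and 10.7% in sham, type IV 43.99% in MI and 77.7% in sham, type VI 3.70% in MI and 3.43% in sham, and multiplexin 7.41% in MI and 5.81% in sham, so the order of the type VI shares depends on the unit. All 7 pair ratios kept their sign with each library left out and with each other unit or offset.

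The replicate numbers shared by both groups did not pair the libraries: the deviations of same-numbered libraries correlated at -0.0679, -0.0365 and 1.21e-04. With the number as a block, 14 chains were higher and 13 lower, and 4764 of all genes were higher and 4871 lower. The offset of limma on TPM shrinks the change of low chains by construction (Col4a6 -1.22, Col8a2 0.78). The stricter filter left 30 chains and thinning left 28, so low chains such as Col25a1 were tested under fewer alternatives. Depth limits chains under about 1 TPM, where a sham library held few counts.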
